A study of Mus musculus with 6 samples.

Results

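The regions described here are places inside genes where Runx1 was called on chromatin of lung fibroblasts 14 days after bleomycin injury and neither in sham-injured lungs nor 56 days after injury. Peaks of the 3 deposited lists (sham, D14 and D56, chromosomes 1 to 19) that overlapped by 1 bp or more were joined into 56619 regions. A region was kept when it held a D14 peak and no sham or D56 peak, and when its midpoint lay inside a RefSeq gene body of build mm10 and more than 1 kb from every gene end. This left 16219 regions. They were thus chosen by the presence and absence of peaks in these same lists, so their number, their D14 values and the lack of a sham or D56 peak are a description and support no further statement.

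Runx1 is a DNA-binding transcription factor of the RUNX family. It pairs with the subunit Cbfb, reads a short TGTGGT-like motif and can act as an activator or a repressor, depending on its partners. RUNX factors often occupy enhancers, which can lie in introns far from the start of the gene they serve, as well as promoters. In injured lung, fibroblasts take up a matrix-producing, contractile state, and bleomycin is the usual agent for inducing it in mice.

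The series profiled Runx1 by ChIP-seq, in which an antibody pulls down DNA bound by the factor, in GFP+ fibroblasts of Col1a2-CreERT2;mTmG mouse lungs. All 3 groups share this genotype: a tamoxifen-dependent Cre driven by the collagen gene Col1a2 switches a membrane reporter from red to green, so only cells in which that driver had been active were taken. The sham group had a sham injury, and the D14 and D56 groups were collected 14 and 56 days after intratracheal bleomycin. Each group gave 1 ChIP library and 1 input library, 6 libraries in all. No label states the number or age of the mice. Peaks do not measure expression, so the fibroblast label was not checked on RNA.

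Every condition thus rests on a single ChIP library, so nothing was tested. Intervals are 95% intervals (Wilson for shares, exact Poisson for rates) and cover counting error only. The D14 library was the deepest, with 78744701 ChIP tags and 49312043 input tags, against 48816721 and 39609538 in sham and 49669125 and 19949187 at D56. The lists held 55378 D14, 24611 sham and 14704 D56 peaks on chromosomes 1 to 19. The absence of a sham or D56 peak means that none was called at that library's depth, and depth cannot be told apart from the condition.

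Most D14-only regions inside genes lay deep in the gene body, but some met an alternative start. RefSeq lists promoter windows (250 bases before to 50 after a start, build GRCm38.p6, which is mm10) for several starts of a gene, and 361 of the 16219 regions met such a window (2.23%, 2.01 to 2.46). The windows belonged to 344 genes. Regions called in all 3 libraries and placed inside genes by the same rule met one far more often, in 691 of 3510 cases (19.7%, 18.4 to 21.0). The windows are shown because they are the stretches under these regions whose bases were at hand. The 4 below were chosen after their values were seen: the one with the highest fold enrichment (Rnf32) and 3 at genes of fibroblast biology (Nox4, Mylk, Tgfb2). Each is printed from 5′ to 3′ on the gene's strand, and capitals mark TGTGGT on either strand.
Rnf32: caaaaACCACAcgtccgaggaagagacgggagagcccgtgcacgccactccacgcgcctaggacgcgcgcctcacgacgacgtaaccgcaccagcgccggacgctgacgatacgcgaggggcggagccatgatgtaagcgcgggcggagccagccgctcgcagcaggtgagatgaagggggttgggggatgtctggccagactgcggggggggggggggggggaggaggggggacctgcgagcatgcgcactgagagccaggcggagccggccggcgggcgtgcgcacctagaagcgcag
Nox4: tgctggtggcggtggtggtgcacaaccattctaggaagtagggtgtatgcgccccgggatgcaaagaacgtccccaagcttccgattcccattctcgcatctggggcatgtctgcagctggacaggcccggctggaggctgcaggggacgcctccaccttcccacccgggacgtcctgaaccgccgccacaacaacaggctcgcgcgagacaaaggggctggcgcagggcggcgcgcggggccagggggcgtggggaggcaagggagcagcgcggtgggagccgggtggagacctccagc
Mylk: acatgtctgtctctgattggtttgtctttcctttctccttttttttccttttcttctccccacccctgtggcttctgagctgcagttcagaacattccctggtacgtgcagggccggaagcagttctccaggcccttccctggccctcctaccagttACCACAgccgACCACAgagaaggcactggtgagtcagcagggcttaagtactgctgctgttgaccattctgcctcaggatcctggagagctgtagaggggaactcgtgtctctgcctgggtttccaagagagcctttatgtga
Tgfb2: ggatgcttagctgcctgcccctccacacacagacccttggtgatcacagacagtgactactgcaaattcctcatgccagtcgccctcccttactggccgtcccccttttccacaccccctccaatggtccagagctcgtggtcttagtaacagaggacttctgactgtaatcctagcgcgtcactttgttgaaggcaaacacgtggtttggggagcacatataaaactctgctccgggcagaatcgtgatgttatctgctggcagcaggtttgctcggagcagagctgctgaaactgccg

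The Rnf32 window, chr5:29195743-29196042 on the plus strand, lies in the gene of a RING finger protein. Its D14 peak had a fold enrichment of 16.2 and a summit at -173 bp from the start, and no other peak of any library met the gene body. The letters shown occur there at -245. The Nox4 window, chr7:87246399-87246698 on the plus strand, belongs to an NADPH oxidase that makes reactive oxygen species in myofibroblasts. Its peak had a fold of 13.2 and a summit at -51 bp, with none of the RUNX letters in the window. The Mylk window, chr16:34784700-34784999 on the plus strand, is an inner start of the myosin light chain kinase gene. It held the letters at -93 and -83, beside a summit at -53 bp (fold 6.59). The Tgfb2 window, chr1:186705940-186706239 on the minus strand, belongs to a TGF-beta ligand, and its peak had a fold of 4.74 with none of these letters.

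Across the 405 windows met, 67 held TGTGGT on either strand (16.5%, 13.2 to 20.5), close to the share of all 31365 windows (16.7%). Among the 4536 windows over 1 kb from every gene end it was 17.5%. In the windows met by regions of sham and D14 inside genes it was 16.8%, and in those met by regions of all 3 libraries 11.3% (9.28 to 13.6). In windows over 1 kb from gene ends that met no peak of any library it was higher, at 19.5% (18.2 to 21.0). The GC box GGGCGG was present in 53.3% of the windows met (48.5 to 58.1), in 36.0% of all windows and in 29.3% of those over 1 kb from gene ends. In the windows met by regions of sham and D14 inside genes it was 50.5%, and in those met by regions of all 3 libraries 69.7%. The E-box CAGCTG was in 21.7% (17.99 to 26.0) against 16.3% of all windows. It was in 18.5% of those over 1 kb from gene ends, which that interval holds, and in 20.7% of the windows of sham and D14. The SMAD letters CAGAC were in 57.8% (52.9 to 62.5) against 49.6% of all windows and 50.8% of those over 1 kb from gene ends. In the windows of sham and D14 the SMAD share was 46.2% (39.5 to 52.9). In those met by D14-only regions within 1 kb of a gene end it was 50.8% (48.6 to 53.0). In windows over 1 kb from gene ends that met no peak of any library it was 52.0% (50.2 to 53.7). For TGTGGT and for the 5 other motifs searched (TGTGGTTT, TGANTCA of AP-1, GGAATG of TEAD, CCGGAA of ETS and TGACGTCA of CRE), the interval held the share of all windows. The windows met were also richer in G and C, at 59.8% of bases against 54.0%, and the part of base composition in the motif shares was not tested. The regions that meet no window were not searched for motifs here, and a match is only a match of letters.

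D14-only regions made up 56.8% of all union regions (32186) and 65% of the 24938 union regions inside genes. Of the 32186 D14-only regions, 50.4% lay inside genes (49.8 to 50.9), 5954 lay within 1 kb of a gene end and 10013 lay outside genes. Regions of all 3 libraries were placed otherwise, with 26.1% inside genes (25.4 to 26.8) and 59.7% at gene ends. Regions of sham and D14 came close to the D14-only ones, with 47.6% inside (46.5 to 48.7). Inside genes, D14 shared 4013 regions with sham alone and 190 with D56 alone. Among D14-only regions just inside the 1 kb limit (over 1000 to 1100 bp from a gene end), 264 had a median fold of 4.65, and 268 just outside it (over 900 to 1000 bp) had 4.48.

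The peaks themselves were weak for the D14 list. Fold enrichment, the height of the ChIP signal over the local background as the authors' peak caller gave it, had a median of 4.71 (lowest 1.71, highest 24.5). The middle 90% of regions lay between 3.09 and 8.91. The median pileup was 26 fragments, the median −log10 q-value was 9.07 and the median width was 212 bp. Regions of all 3 libraries inside genes were stronger and wider: 51.8% had a D14 fold of 10 or more, and their median width was 592 bp. A fold of 5 or more was reached by 6810 D14-only regions inside genes (42.0%), a fold of 10 or more by 445 (2.74%) and a fold of 15 or more by 25.

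**Figure D1:**
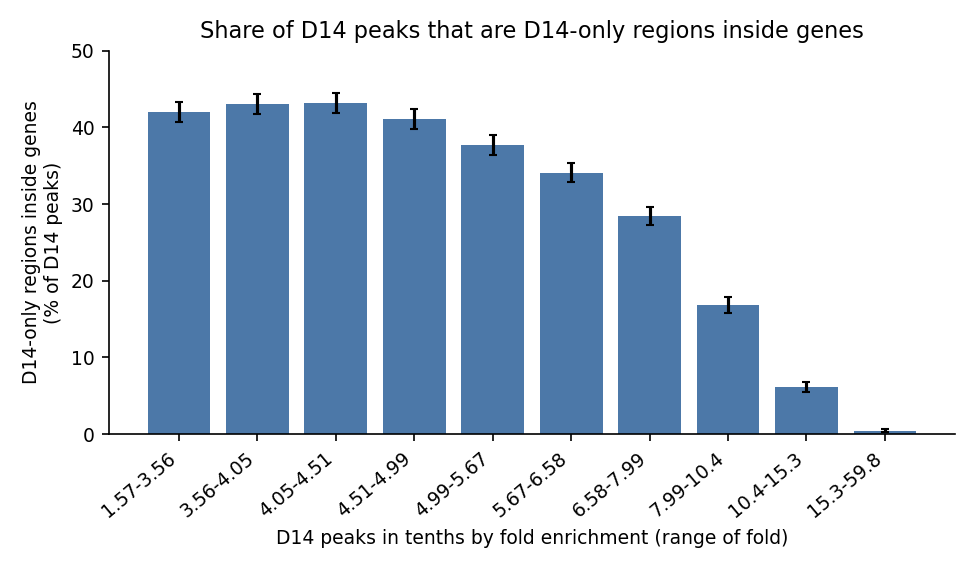
D14 peaks on chromosomes 1 to 19 in deciles by fold enrichment (x axis, range of fold) and the percent of each decile that are D14-only regions inside genes (y axis, bars with 95% Wilson intervals). The share is 42.1% in the lowest decile and 43.2% in the third, and falls to 6.10% in the ninth and 0.397% (22 peaks) in the highest.

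Weak D14 peaks were far more often D14-only and inside genes than strong ones. In each of the lowest 4 deciles by fold at least 41.1% of peaks were, and in the highest decile 22 peaks were. When each list was limited to its 14704 strongest peaks by p, 1114 D14-only regions inside genes were found in place of 16219. Of these, 661 were among the 16219, and 453 shared a joined region with a weaker sham peak that this limit dropped. The D56 list, with 14704 peaks, was kept whole. When the D14 pileups were thinned to the scaled depth of D56, 10523 remained (64.9%). How much of the D14-only pattern is strength or depth cannot be told apart from the injury in these libraries.

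The highest folds stood in genes of several kinds. The strongest region of all lay in Shank2, which encodes a scaffold of excitatory synapses (fold 24.5, pileup 110, chr7:144417617-144418202). The same stretch lies in the unnamed model Gm34621. It was 1 of 4 D14-only regions in Shank2, whose body held no sham or D56 peak. Next among named protein-coding genes came Atp12a, a non-gastric proton pump (17.8, chr14:56366730-56367193), Unc5a, a netrin receptor (17.7, chr13:54955804-54956466), and Adamtsl3, a matrix protein of the ADAMTS-like family (17.6, chr7:82533866-82534575). These 3 genes also held no sham or D56 peak. Slc4a4, a sodium bicarbonate cotransporter (17.0), Gse1 (16.9), Grb10, an adaptor that restrains insulin signalling (16.9), and Schip1 (16.7, in a stretch shared with Iqschfp) followed. Thumpd1, a tRNA acetylation cofactor, had 16.4 and Lpin1, a phosphatidate phosphatase, had 16.4.

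Of the 16219 regions, 14037 lay in a protein-coding gene (86.5%), 2103 only in a long non-coding RNA gene (13.0%) and 79 only in genes of other types. A few, 137, lay in 2 or more protein-coding genes that overlap. In all, 5581 of the 18281 protein-coding genes with an interior held at least 1 region (30.5%). Of the 5581 genes, 2784 held 1 region and 171 held 10 or more. Those 171 genes, with a median interior of 323 kb, held 16.2% of all pairs of region and gene. A sham peak met the body of 4024 of the 5581 genes and a D56 peak that of 3363. In 1519 genes neither did, and in 968 the D14-only interior regions were the only peaks of any library. The same counts over all 18281 genes are not given here, so these describe the host genes only.

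The genes with the most regions were long. Arhgap26, a GTPase-activating protein, and Wwox, an oxidoreductase at a fragile site, each held 27. Frmd4a, a FERM domain scaffold, and Foxp1, a forkhead repressor, held 25 each. Tns3, a focal adhesion tensin, held 24 in an interior of 231 kb (104 per Mb), while Pde4d, a cyclic AMP phosphodiesterase, held 24 in 1281 kb (18.7 per Mb). Nav2, a neuron navigator, Slit3, a guidance ligand, and Pakap held 23 each, and Gse1 held 22. None of these 10 was free of sham peaks: their bodies held 6 (Tns3) to 19 (Gse1) in sham, 31 (Tns3) to 45 (Gse1) at D14 and 2 to 12 at D56.

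Longer genes more often held a region. The rate over all protein-coding genes was 15.2 D14-only regions per Mb of gene interior, beside 3.36 for regions of all 3 libraries and 3.76 for those of sham and D14. The share of genes with at least 1 region rose from 8.69% below 10 kb of interior to 85.2% above 1000 kb. The rate per Mb went the other way. It was 22.2 in genes up to 10 kb, 18.1, 17.3 and 17.98 in the next 3 length classes, 10.98 between 300 and 1000 kb and 3.76 above 1000 kb.

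**Figure D2:**
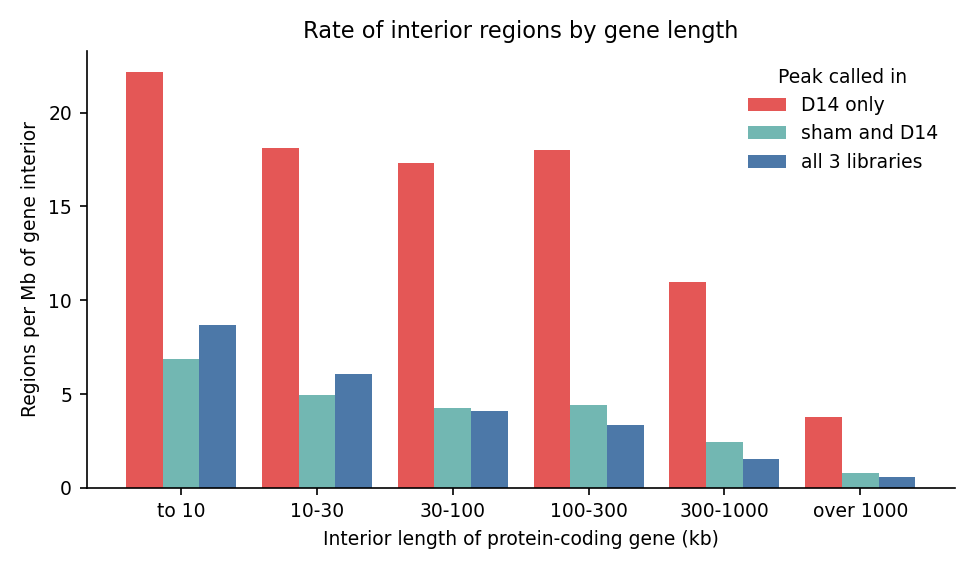
Regions per Mb of gene interior (y axis) for protein-coding genes in 6 classes of interior length in kb (x axis), for regions called at D14 only, in sham and D14, and in all 3 libraries. All 3 patterns are lowest in genes above 1000 kb (3.76, 0.813 and 0.589 per Mb), and the D14-only rate stays near 18 between 10 and 300 kb, where the rate for all 3 libraries goes from 6.04 to 3.34.

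Per Mb of interior, shorter genes led. Lif, a cytokine of the interleukin-6 family, held 7 D14-only regions in 12.9 kb of interior (541 per Mb), and its body held no other peak in any library. Their summits lay between 1.40 and 13.7 kb from the 5′ end, and their folds were 3.64, 4.09, 7.11, 3.72, 6.05, 4.92 and 5.49. Ak1, an adenylate kinase, held 6 regions (531 per Mb), likewise with no other peak. Thbs1, the matricellular protein thrombospondin, held 5 (377 per Mb) beside 13 sham peaks. Gja5, a connexin, held 5 (290.2 per Mb). Pmepa1, a membrane protein that restrains SMAD activation, held 14 (278 per Mb). Bcl9l, a Wnt coactivator, held 7 (259 per Mb), Kcnh2, a potassium channel, 7 (249 per Mb), and Ptges, a prostaglandin E synthase, 8 (238 per Mb). Slc6a12, a betaine transporter, and Septin4 held 5 each (236 and 229 per Mb).

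**Figure D3:**
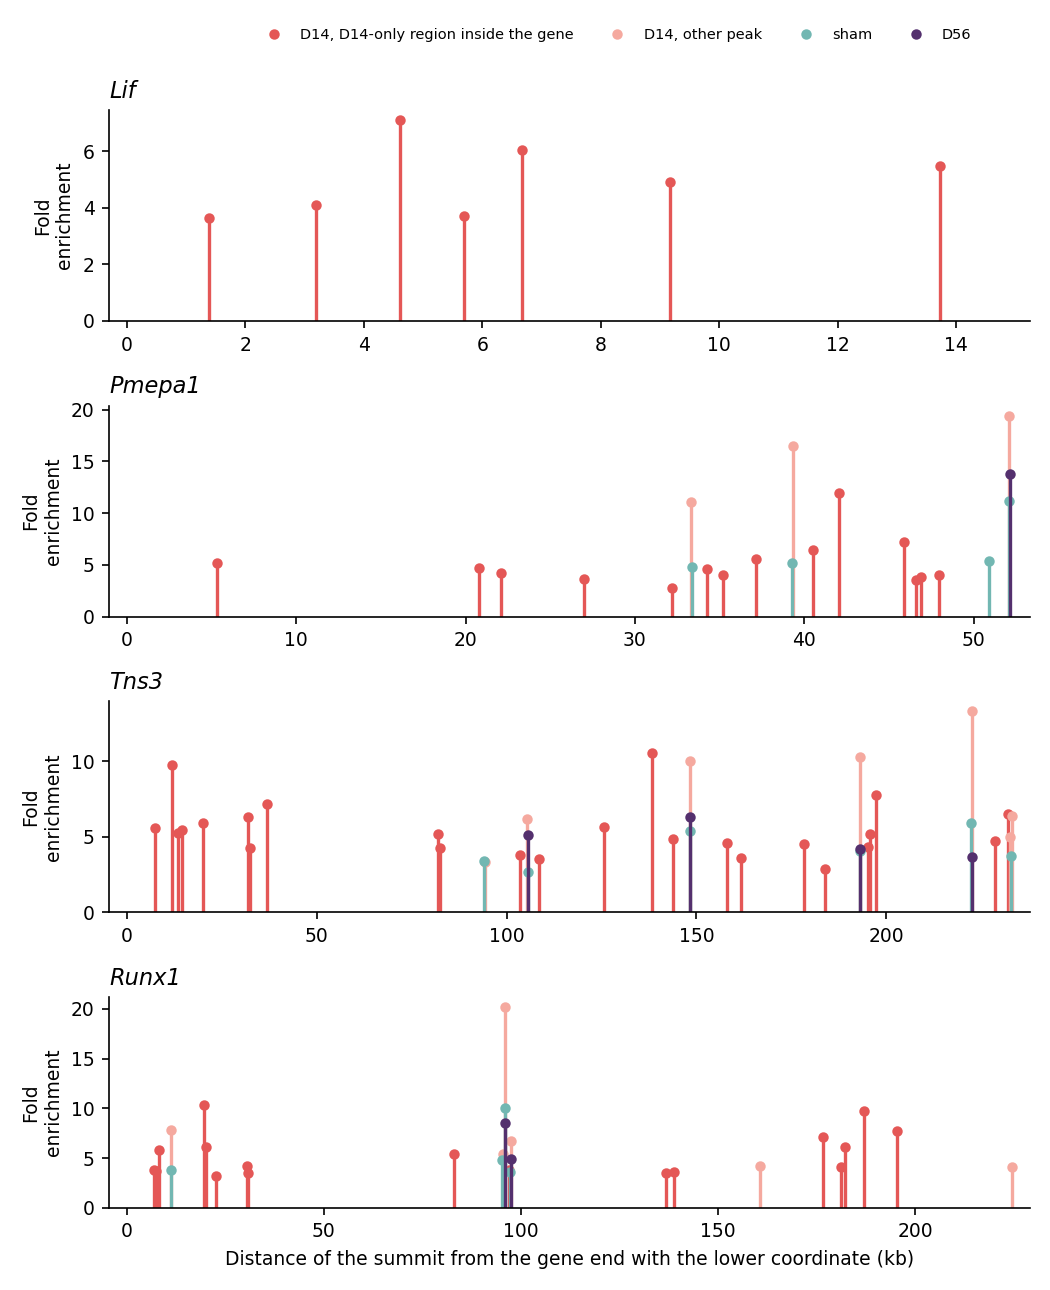
Every peak in the bodies of Lif, Pmepa1, Tns3 and Runx1, by the distance of its summit from the gene end with the lower coordinate in kb (x axis) and its fold enrichment (y axis; folds are set within each library and are not comparable across libraries). Lif holds 7 D14-only regions and nothing else, while Pmepa1 (14), Tns3 (24) and Runx1 (17) hold them beside stronger D14 peaks that sham or D56 share.

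Among genes whose bodies held no sham or D56 peak at all, Nebl had the most D14-only interior regions. Nebl encodes nebulette, an actin-binding protein of cardiac Z discs and, in a shorter form, of focal adhesions. It held 13 regions with folds of 2.92 to 10.6, and the strongest lay 3.83 kb from the 5′ end. Ptprn2, a phosphatase-like protein of secretory granules, held 12 with a highest fold of 11.1. Fat3, an atypical cadherin, held 11 (highest 7.47), Srgap3, a GTPase-activating protein of the Slit-Robo pathway, 10 (7.26), and Ncam1, a neural cell adhesion molecule that also marks activated fibroblasts, 9 (9.42).

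Runx1 itself, on chr16:92601466-92826074, held 17 D14-only interior regions (77.8 per Mb). Of these, 5 lay 29.1 to 47.8 kb from the 5′ end and the others farther inside. The strongest had a fold of 10.4 at chr16:92620794-92621100, 205 kb from the 5′ end, and the next had 9.72 at chr16:92788387-92788946, 37.5 kb from it. The gene body held 23 D14, 4 sham and 2 D56 peaks. Of the other family genes, Runx2 held 11 D14-only interior regions (highest fold 10.0), Runx3 held 3 and Cbfb held 1. The histone deacetylase gene Hdac4 held 6.

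Gene lists were described by their number of D14-only interior regions, set against the number that protein-coding genes of the same interior length would hold at their common rate. Of 28 lists, the 95% interval of this ratio lay wholly above 1 for 17, wholly below 1 for 2, and held 1 for 9. Regions of 1 gene share that gene, so these intervals are too narrow, and the lists overlap. Most of the 17 lists also had more regions of sham and D14 and of all 3 libraries per Mb than all genes. Fibrotic markers held no region of all 3 libraries, and phosphodiesterases and guidance genes were below all genes in both other patterns. At equal list length, only the ratio to the rate of all genes was computed. For most lists it is given below beside the same ratio in the whole lists. Over all protein-coding genes the median number of regions per gene was 0.

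**Figure D4:**
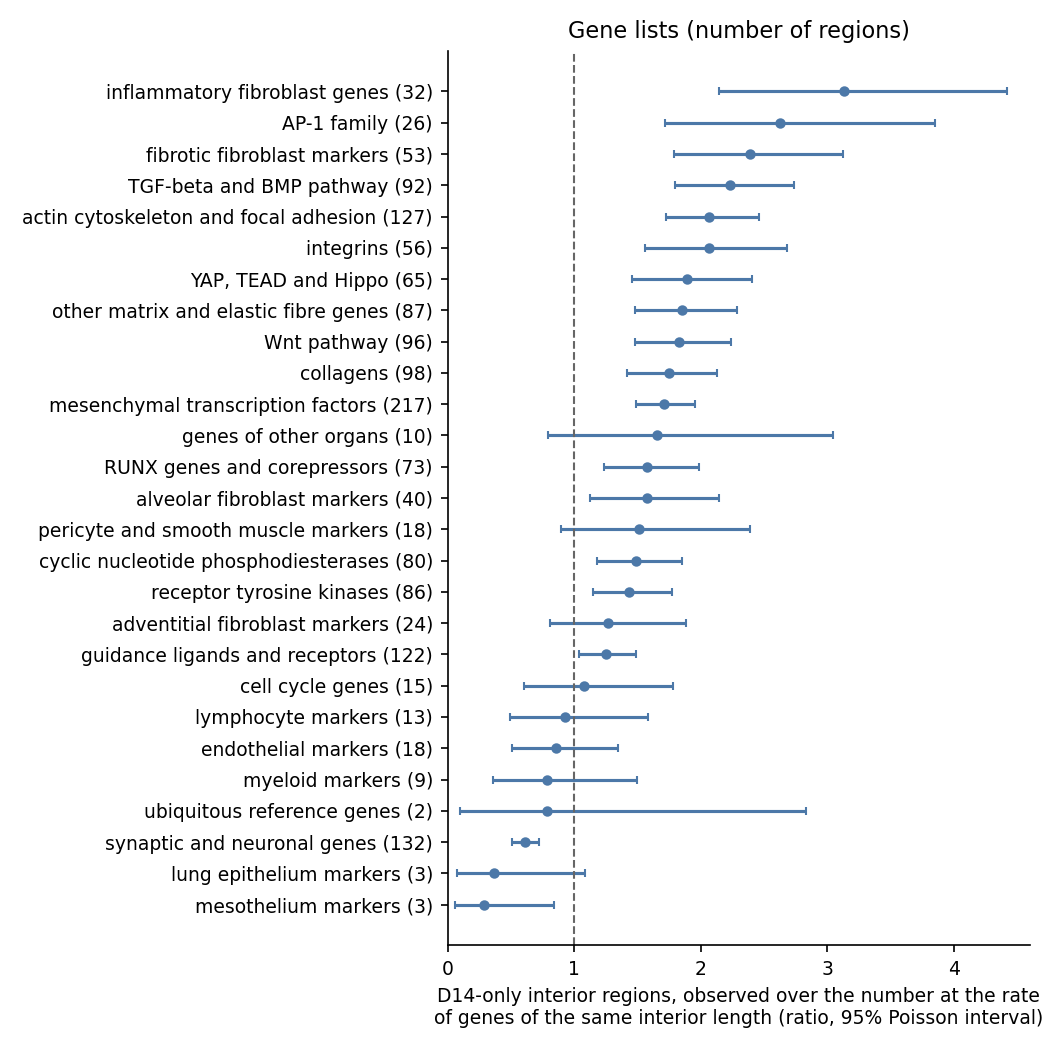
Ratio of observed D14-only interior regions to the number at the rate of protein-coding genes of the same interior length (x axis; points with 95% Poisson intervals, dashed line at 1) for 27 of the gene lists (y axis, number of regions in brackets). Inflammatory fibroblast genes stand highest at 3.13, and synaptic and neuronal genes (0.610) and mesothelium markers (0.288) lie wholly below 1.

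Genes that mark fibrotic fibroblasts held 53 regions, 2.39 times the number at the rate of genes of the same length (1.79 to 3.13). These regions lay in 8 of 20 genes, and the median gene held 0. Pmepa1 (14), the metalloprotease Adam12 (13), Ncam1 (9) and the latent TGF-beta binding protein Ltbp2 (9) held most of them. The Pmepa1 body held 4 sham, 17 D14 and 1 D56 peaks, that of Adam12 2, 16 and 0, that of Ltbp2 1, 11 and 0, and that of Ncam1 0, 10 and 0. In all 4 the D14 count was the highest, but they were named for their D14-only regions, and the D14 list was the longest. Col8a1, a short-chain collagen, and Inhba, the activin A subunit, held 3 each, and Col3a1 and Col5a2 held 1 each. The list's rate was 38.8 per Mb, and 29.6 without Pmepa1, against 15.2 over all genes. It held 0 interior regions of all 3 libraries and 6 of sham and D14, so that 89.8% of its regions in these 3 patterns were D14-only (79.5 to 95.3), against 68.1% over all genes. This share uses what chose the regions and is given as a description. It was not particular to this list, with 90% in myeloid markers (9 of 10 regions) and 86.7% in lymphocyte markers (13 of 15). In genes of other organs it was 83.3% (10 of 12), and it went down to 33.3% in ubiquitous reference genes. The myeloid, mesothelium and other-organ lists also held 0 regions of all 3 libraries. Matrix genes typical of fibrotic fibroblasts, Postn, Cthrc1, Tnc and Col1a1, held 0 D14-only interior regions, the last in 14.8 kb of interior. At equal list length the list held 3 regions, and its ratio to all genes was 2.11, against 2.55 in the whole lists.

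TGF-beta signals through paired receptor kinases and SMAD proteins. Genes of the TGF-beta and BMP pathway held 92 regions in 23 of 34 genes, a ratio of 2.23 (1.80 to 2.74), and had 8.81 regions of all 3 libraries and 14.2 of sham and D14 per Mb, 2.63 and 3.77 times the rates over all genes. Among ligands and their binding proteins, Ltbp1 held 13, Ltbp2 9, and Tgfb1 and Tgfb2 2 each. Among receptors, Tgfbr3, a coreceptor, held 7, Acvr1 6, Tgfbr2 4 and Tgfbr1 1. Of the SMADs, Smad3 held 7 and the inhibitory Smad6 and Smad7 held 5 each, while Smad2 and Smad1 held 0. Smad3 had peaks in every library, 14 sham, 22 D14 and 6 D56 peaks in its body. At equal list length the list held 2 regions, and its ratio to all genes was 0.735, against 2.32 in the whole lists.

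Collagen genes held 98 regions in 23 of 28 genes, a ratio of 1.75 (1.42 to 2.13). Among non-fibrillar collagens Col23a1, a transmembrane collagen, held 12, Col15a1, a basement membrane zone collagen, 10, and Col4a2 8. Among fibrillar collagens Col5a1 held 8, Col24a1 7, Col27a1 6, Col1a2 1 and Col1a1, with 14.8 kb of interior, 0. The other matrix genes held 87 regions in 26 of 36 genes, a ratio of 1.85 (1.48 to 2.28). Fbn1, the fibrillin of microfibrils, held 11, Hspg2, perlecan, 9, and the laminin genes Lama4, Lamc1 and Lamb1 6 each. The highest fold of the list was in Fbln2, a fibulin (13.1). Lox and Loxl2, which crosslink collagen, held 0. At equal list length the ratio to all genes was 2.04 for collagens (7 regions), against 1.96 in the whole lists. For the other matrix genes it was 2.51 (8 regions), against 1.87.

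Actin filaments and focal adhesions carry the pull of a contractile fibroblast. Actin cytoskeleton and focal adhesion genes held 127 regions in 30 of 38 genes, a ratio of 2.07 (1.72 to 2.46), beside a rate of sham and D14 regions 3.09 times that over all genes. Lpp, a focal adhesion LIM protein, held 17 and Palld, palladin, 16. Cald1, caldesmon, Myh9 and Tln2 held 9 each. Actn4, an actinin, held the strongest region of the list (15.4, chr7:28919749-28920149). Acta2, the smooth muscle actin of myofibroblasts, held 1 (fold 3.18). Tagln, Myl9 and Srf, whose interiors are only 2.4 to 7.4 kb, held 0. Integrin genes held 56 regions in 13 of 17 genes, a ratio of 2.07 (1.56 to 2.68), led by Itga9 (14), Itgb5 (12) and Itgav (7). The last 2 encode the chains of an integrin that activates latent TGF-beta. The ratio to all genes at equal list length was 2.42 for the actin list (10 regions), against 2.11 in the whole lists. For integrins it was 1.89 (3 regions), against 2.41.

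Genes of YAP, TEAD and the Hippo pathway, which respond to tension in the cytoskeleton, held 65 regions in 17 of 26 genes, a ratio of 1.89 (1.46 to 2.41). Vgll4, a TEAD corepressor, held 8, Amotl1, an angiomotin that binds YAP, held 6 with no sham or D56 peak in its body, and Tead1 held 6. Wwc2, an upstream regulator, held the strongest (14.6). Yap1 held 0 in 70.6 kb of interior, as did the YAP targets Ccn1 and Ccn2, whose interiors are about 1 kb. The list's ratio to all genes was 2.98 at equal list length, with 6 regions, and 2.21 in the whole lists. Of those 6 regions, 1 lay in Yap1, which held 0 in the whole lists.

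Inflammatory fibroblast genes had the highest ratio in the whole lists, 3.13 (2.14 to 4.42), with 32 regions in 12 of 28 genes. At equal list length they held 1 region, and their ratio to all genes was 1.69, against 3.72 in the whole lists. That of AP-1 genes was higher, at 4.22 from 3 regions, against 2.51 in the whole lists. Nfkb1, an NF-kappaB subunit, held 9, Lif 7 and the interleukin-1 receptor gene Il1r1 4. Without Nfkb1 the list's rate was 49.5 per Mb. It was also dense in regions of all 3 libraries (21.2 per Mb, 6.32 times all genes). The AP-1 family of stress-responsive transcription factors had 26 regions in 7 of 19 genes, a ratio of 2.63 (1.72 to 3.85), and 21.98 regions of all 3 libraries per Mb. Of its 26 D14-only regions 17 lay in Bach2, and Fos, Jun and Fosb, whose interiors are short, held 0. Atf3, with an interior about as long as that of Ak1, also held 0. The body of Atf3 held 15 sham, 2 D14 and 2 D56 peaks. That of Fosb held 2, 8 and 5, that of Fos 2, 1 and 1, and that of Jun 2, 2 and 3.

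Wnt pathway genes held 96 regions in 29 of 42 genes, a ratio of 1.83 (1.48 to 2.24), led by the receptor tyrosine kinases of noncanonical Wnt signalling Ror1 (13) and Ror2 (9) and the transcription factor Tcf7l2 (9). Beta-catenin, Ctnnb1, held 0 in 23.0 kb of interior. Mesenchymal transcription factors held 217 regions in 33 of 46 genes, a ratio of 1.71 (1.49 to 1.96). Foxp1 (25), Rora, an orphan nuclear receptor (21), Tcf4, an E protein (16), and Nfia (15) held the most, while the short genes Twist1, Snai1 and Snai2 held 0. Receptor tyrosine kinases (86 regions, 1.43), phosphodiesterases (80, 1.49), guidance ligands and receptors (122, 1.25) and RUNX genes with their corepressors (73, 1.58) had intervals above 1 as well. The ratios to all genes of phosphodiesterases, guidance genes and receptor tyrosine kinases were 1.05, 0.821 and 1.16 in the whole lists. At equal list length they were 0.192, 0.589 and 0.789, from 1, 6 and 4 regions. For Wnt genes the ratio went from 2.05 in the whole lists to 1.56 at equal list length (5 regions). For mesenchymal transcription factors it went from 1.46 to 1.28 (13 regions), and for RUNX genes with their corepressors it was 1.58 in both (5 regions).

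The intervals of the fibroblast subset markers overlapped. Alveolar fibroblast markers held 40 regions in 11 of 19 genes, a ratio of 1.57 (1.12 to 2.14), with 15 in Limch1. Adventitial markers held 24 in 9 of 17 genes, a ratio of 1.26 (0.810 to 1.88), with 10 in Col15a1. Cell cycle genes held 15 regions in 8 of 30 genes, a ratio of 1.08 (0.605 to 1.78). The ratios to all genes of the alveolar, adventitial and cell cycle lists were 1.70, 1.30 and 1.30 in the whole lists. At equal list length they were 1.24, 0 and 1.27, from 2, 0 and 1 regions.

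Markers of cells that a fibroblast gate should leave out were lower or had wide intervals. Lung epithelium markers held 3 regions in 3 of 20 genes (ratio 0.370, 0.0764 to 1.08) and mesothelium markers 3 in 2 of 8 (0.288, 0.0594 to 0.842). Myeloid markers held 9 in 6 of 17 genes (0.787), with 1 in Ptprc, the leukocyte marker CD45. Lymphocyte markers held 13 in 5 of 17 (0.927) and endothelial markers 18 in 11 of 18 (0.853), with 3 each in Cdh5 and Flt1, whose bodies held no sham or D56 peak. Pericyte and smooth muscle markers held 18 in 8 of 17 (1.51, 0.896 to 2.39), led by Pdgfrb with 6. Genes of other organs held 10 in 4 of 15 (1.66, 0.795 to 3.05), 7 of them in Mbp, a myelin gene. The part of other cell types in the D14-only regions was not tested. Ubiquitous reference genes held 2 regions, and 4 of all 3 libraries.

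Synaptic and neuronal genes, many of them very long, held 132 regions in 30 of 40 genes. Their ratio to genes of the same length was 0.610 (0.510 to 0.723). The ratio to all genes was 0.266 in the whole lists and 0.353 at equal list length, from 12 regions. Cacna1c, a voltage-gated calcium channel that smooth muscle also uses, held 20, and Rbfox1, a splicing regulator, 16. In 18 of the 30 genes the body held no sham or D56 peak, Shank2 among them. Over all protein-coding genes with a region this held for a smaller share, 1519 of 5581. Neuronal genes were low in regions of all 3 libraries as well, with 0.583 per Mb against 3.36.

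Position within the gene was not used by the rule beyond the 1 kb limit. In 7569 protein-coding genes of 20 kb or more with a known strand, D14-only interior regions were spread almost evenly, with 11.9% in the first decile of the gene's length (11.3 to 12.6) and 9.31% in the last (8.76 to 9.90). Regions of sham and D14 came close to this, with 12.9% in the first decile (11.6 to 14.3) and 8.39% in the last. Regions of all 3 libraries crowded towards the start, with 19.1% in the first decile (17.5 to 20.9) and 6.13% in the last. The median distance from the 5′ end was 50.2 kb for D14-only regions, 46.2 kb for those of sham and D14 and 32.0 kb for those of all 3 libraries.

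**Figure D5:**
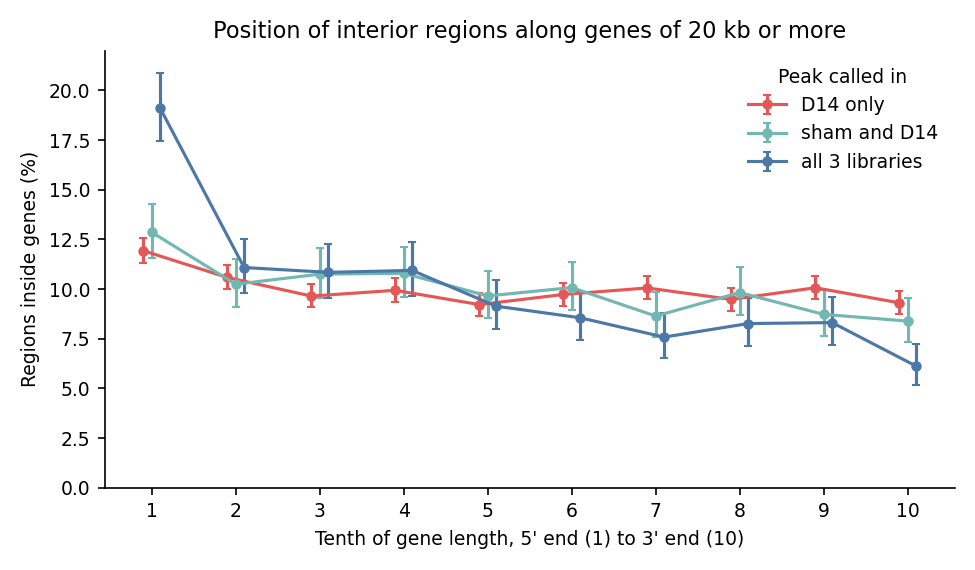
Percent of interior regions (y axis, points with 95% Wilson intervals) in each decile of the gene's length from the 5′ to the 3′ end (x axis), for 10029 D14-only pairs of region and gene, 2371 of sham and D14 and 2056 of all 3 libraries. The D14-only line stays between 9.22% and 11.9% and that of sham and D14 between 8.39% and 12.9%. The line of all 3 libraries starts at 19.1% and ends at 6.13%.

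Genes with D14-only interior regions more often had a D14 or sham peak at their 5′ end. Among 4337 such genes with a known strand, 69.8% had a D14 peak within 1 kb of the 5′ end (68.4 to 71.1), against 58.9% of 10143 genes without (58.0 to 59.9). In sham the shares were 54.4% (53.0 to 55.9) and 49.7% (48.7 to 50.6). At D56 they were 46.6% (45.1 to 48.0) and 44.6% (43.7 to 45.6), and these intervals overlap. The first group is longer, and the part of length in this gap was not tested.

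D14-only interior regions often lay near peaks of the other libraries without touching them. A sham or D56 peak lay within 10 kb of 37.5% (36.8 to 38.3), within 1 kb of 9.53% and within 500 bp of 865 regions (5.33%). Outside genes, 32.6% of D14-only regions had one within 10 kb (31.7 to 33.6). The regions also lay near each other: 14.7% had another D14-only interior region within 1 kb (14.2 to 15.3) and 45.0% within 10 kb, against 13.0% and 39.7% outside genes. Chromosomes differed modestly, from 12.1 regions per Mb of interior on chromosome 14 to 19.4 on chromosome 11.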

How the data were processed

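Peak lists of 3 Runx1 ChIP-seq libraries were used. The submitters' processing notes name BWA, SAMtools and MACS2 with build mm10. Each list was called by MACS version 2.0.10.20120913 against that condition's input at a q-value cutoff of 0.01, per the file headers. The deposited lists give the pileup, a coverage signal scaled within the ChIP and input pair, the fold enrichment, a ratio of pileup to local background, and −log10 p and −log10 q values by the authors. These are set within a library and were used only within a list.

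Regions were placed by their midpoint on the 47038 genes of the RefSeq table of GRCm38.p6. A gene's interior is its body over 1 kb from every gene end. Strand came from the RefSeq promoter table, which held no chromosome 18 windows. Exons, introns and the planned motif shares under the regions were not analysed here. Promoter windows were searched instead, and lists were compared with genes of the same length in 6 classes, both chosen after seeing the data.

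The regions and the 28 lists (691 genes, all 691 in the table, 670 with an interior) were chosen with earlier results of these data known. Genes were named by rule: hosts of the 10 highest folds, the 10 with most regions, the 10 densest with at least 5, the 5 with most regions and no sham or D56 peak, up to 3 per list with most regions, and Runx1. Of these, 1 list and 1 gene are not reported here. Unnamed gene models were passed over, and other genes are named after their values were seen, to show a list's range. Alternatives changed the overlap rule, thresholds, list length, depth, gene-end distance and gene types. For equal list length, the 14704 strongest peaks by p of each list were kept, and the list's rate was divided by that of all genes. For thinning, each D14 pileup was drawn binomially to 40.5% and kept at a −log10 p of at least 4.70. The steps were tested on simulated data. Python 3.11.15, numpy 2.4.6, pandas 2.3.3, scipy 1.17.1 and matplotlib 3.10.9 were used.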

Additional observations from a re-analysis of the deposited data

Results flagged for a closer look

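The rule leaves out the sex chromosomes. Placed by the same steps, chromosome X held 207 regions called at D14 only and inside genes, beside 9 called in sham only and 57 called in all 3 libraries. They are singled out because they lie outside the set described above, and no label states the sex of the mice.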

How the results depend on the processing

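The number of regions (16219) stayed within 1.5 times under 8 of 11 alternatives and fell to 6810 with a D14 fold of 5 or more, 10523 after thinning and 1114 at equal list length. The number of genes (5581) became 3454 and 846 under the first and last of these. The share inside genes (50.4%) was 48.8% with a reciprocal overlap of 50%, 51.8% with peaks under 500 bp apart joined, 49.4% with a fold of 5 or more, 44.4% at equal list length, 42.6% and 55.5% with gene ends at 2.5 kb and 500 bp, and 45.4% with protein-coding genes only. The rate per Mb (15.2) was 16.6 with reciprocal overlap, 15.6 with summits within 200 bp, 13.4 with peaks joined, 13.5 and 12.8 with a −log10 q of 5 or more in every list or at D14, 6.41 with a fold of 5 or more, 1.04 at equal list length, 9.85 after thinning, and 14.3 and 16.2 with the 2 gene-end distances. A sham or D56 peak lay within 5 kb of 25.5% and within 50 kb of 75.7% of regions. Each region holds 1 D14 peak, so the median peak gave the same fold. Of 28 lists, 22 had a rate above that of all genes, 22 with a fold of 5 or more, 16 at equal list length, 22 with a −log10 q of 5 or more and 21 after thinning, the last 2 added after seeing the data. Motif windows of other lengths were not run. No paired analysis was possible because each condition has 1 library.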
